A study of Sus scrofa with 6 samples.

Results

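Heparanase (HPSE) and 9 genes of heparan sulfate proteoglycans were examined in the lung of pigs after extended partial hepatectomy (ePHx), with and without treatment with mesenchymal stromal cells. The 10 genes listed were HPSE, the glypicans GPC1, GPC3 and GPC4, the syndecans SDC1, SDC2 and SDC4, and the enzymes SULF1, NDST1 and EXT1. Of these, 7 could be tied to a main probe set of the array, among 11781 genes measured in all. SULF1, which trims sulfate groups outside the cell, NDST1, which modifies the chain, and EXT1, which elongates it, could not be tied to one and were not analysed here. The names had been chosen by a list that was drawn up with the log2 fold changes of this very comparison known, so the differences of the 7 genes are given as a description and without p-values. The probe set of a gene was selected on its mean log2 signal over all 6 arrays, and each of the 7 had only 1.

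Heparan sulfate is a long, negatively charged sugar chain that is attached to core proteins on the cell surface and in the matrix. Syndecans cross the membrane, whereas glypicans are held on its outer face by a lipid anchor, and both present growth factors, chemokines and coagulation factors that bind the chain. Heparanase is the endoglycosidase that cuts the chain, and in the lung its action on the endothelial glycocalyx, the sugar coat of the vessel wall, is known from mouse models of sepsis.

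The lung biopsies came from 3 adult male German landrace pigs that had received hepatocytic differentiated porcine bone marrow MSC (pBM-MSC) by central venous transfusion and from 3 that had received the Ringer vehicle (control). All 6 animals had undergone a resection of 70% of the liver and were sampled 24 h later, and each lung was put on 1 Affymetrix porcine gene array. Animals without resection were not among the arrays analysed, so that MSC-treated lungs are set against resected animals only. In bulk lung tissue, fewer cells of a type cannot be told apart from less RNA per cell.

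The values were log2 signals after RMA, and a difference of 1 is a doubling or halving of the signal. Signals of different probe sets are on no common scale, and no level of one gene is set against that of another. The mean of 23 background probe sets lay between 3.875 and 4.238 on the 6 arrays and the correlation between arrays between 0.963 and 0.989. SFTPC, the surfactant protein that defines alveolar type 2 cells, was at 12.33 to 12.54 in MSC-treated and 12.27 to 12.53 in control lungs. Of 6 alveolar type 2 markers 5 were measured, SFTPC with a fold change of 0.03 and the other 4 between -0.33 for SFTPA1 and -0.06 for ABCA3, none past the study's thresholds. Their summed linear signal was 12500 to 16100 in MSC-treated and 15000 to 19000 in control lungs. A sum of this kind, here and for the markers below, follows the probe sets of highest signal and adds little to the single values. A mark, b-T, whose meaning is not given stands in the names of 3 arrays: MSC-treated replicate 2 and control replicates 1 and 3. The marked and the unmarked arrays did not overlap in 2714 of 11781 genes (23%), and values within each kind of array are therefore given as well. Control replicate 1 stood apart in markers of blood cells and in albumin (ALB, 7.65 on the log2 scale, against 3.70 to 5.40 on the other 5 arrays). Of the other hepatocyte markers measured, SERPINA1 was also highest there (5.28, against 4.75 to 5.13). APOA1 (7.63, against 7.36 to 7.77) and APOB (4.44, against 4.05 to 4.61) did not set it apart.

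Among the 7 genes measured, HPSE alone was past the thresholds of the study, which are an unadjusted p (here from limma) under 0.05 together with a log2 fold change of 0.5 or more in either direction. It was lower in MSC-treated lungs, at 58.6% of the control signal. None of the 6 core protein genes were past these thresholds, and their fold changes lay between -0.43 for SDC2 and 0.29 for GPC4. Of all 11781 genes, 219 (1.86%) were past the same thresholds, 142 (1.21%) of them lower in MSC-treated lungs and 77 (0.654%) higher. After Benjamini-Hochberg adjustment over all genes in limma 0 genes passed at 0.05, whereas 322 (2.73%) had an unadjusted p under 0.05.

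**Figure D1:**
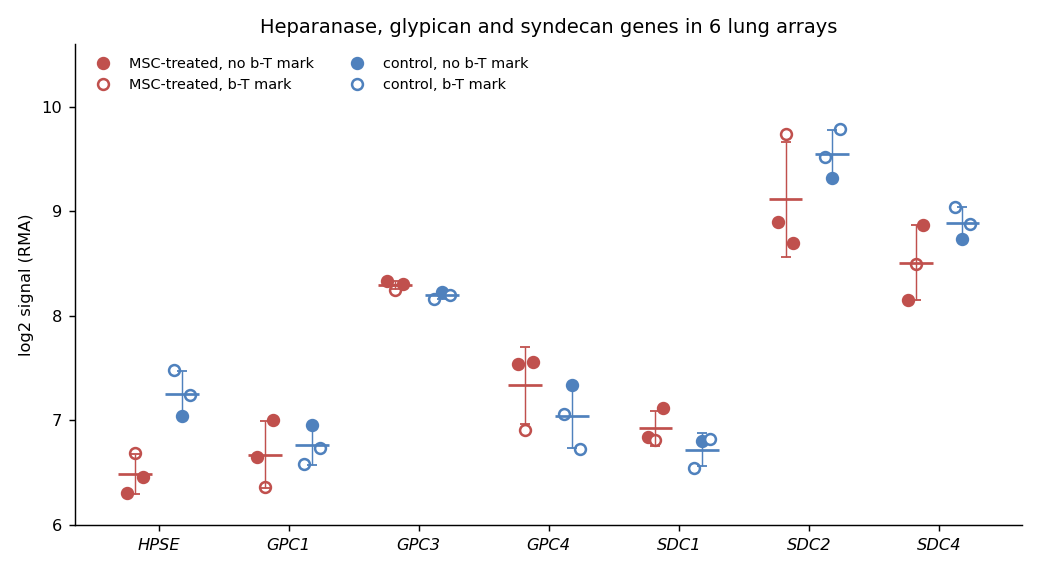
Log2 signal (vertical axis) of the 7 genes on each of the 6 arrays, MSC-treated in red and control in blue, with open circles for arrays whose names carry the b-T mark. Bars are the mean and error bars the SD of 3 animals. HPSE lies between 6.31 and 6.69 in MSC-treated lungs and between 7.04 and 7.48 in control lungs, and GPC3 is the other gene whose groups are apart, by 0.02.

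HPSE, the only one of the 7 that encodes an enzyme, had log2 signals of 6.31, 6.69 and 6.46 in MSC-treated lungs (replicates 1 to 3), against 7.48, 7.04 and 7.24 in control lungs. All 3 MSC-treated lungs were below all 3 control lungs, and a gap of 0.35 separated the highest MSC-treated from the lowest control lung. The means were 6.48 ± 0.19 in MSC-treated and 7.25 ± 0.22 in control lungs (SD, n = 3 each). The log2 fold change was -0.77 with a standard error of 0.19 and a 95% interval of -1.20 to -0.34. Since HPSE was listed with this fold change known, the interval and the threshold call describe these arrays and are no test of HPSE. Groups without overlap were found for 874 of all genes (7.42%), 451 of them lower in MSC-treated lungs (3.83%). The probe set holds 25 probes of a single target, annotated to a protein-coding transcript on the plus strand of chromosome 8 (Sscrofa10.2, 144378355 to 144417268).

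The difference in HPSE had the same direction within both kinds of arrays, which groups without overlap make certain, so only its size is informative. Within the marked arrays MSC-treated replicate 2 was lower than the mean of control replicates 1 and 3 by 0.67, and within the unmarked arrays the mean of MSC-treated replicates 1 and 3 was lower than control replicate 2 by 0.65. With the mark as a covariate the fold change was -0.66 with a standard error of 0.16, and HPSE was among 342 genes (2.9%) past the thresholds in that fit. Of these 144 (1.22%) were lower and 198 (1.68%) higher in MSC-treated lungs, 0 genes passed after adjustment in limma, and 493 (4.18%) had an unadjusted p under 0.05. In each of 15 limma fits besides the main one, HPSE was past the thresholds, with fold changes of -0.88 to -0.66. The fit with the mark and those without single arrays are among these 15. A second reading of the same values and the averaging of probe sets, of which HPSE has 1, could not change its fold change. Without control replicate 1 the fold change was -0.66. Its signal was not reduced by more than 2.0-fold, the stricter criterion also named in Methods.

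**Figure D2:**
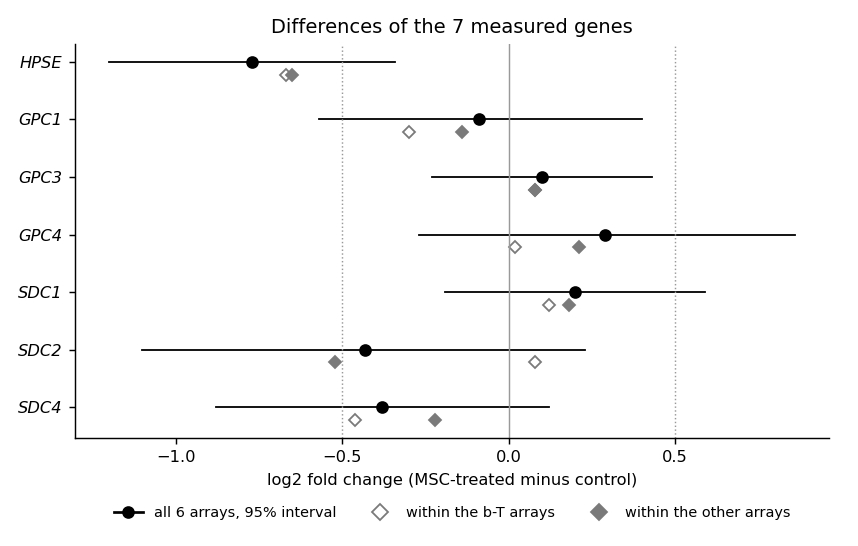
Log2 fold change (horizontal axis, MSC-treated minus control) of the 7 genes. Black points and lines are the fold change and its 95% interval over all 6 arrays, diamonds the differences within the arrays with and without the b-T mark (both at 0.08 for GPC3), and dotted lines the threshold of 0.5. HPSE has the lowest of the 7 fold changes, -0.77, and GPC4 the highest, 0.29.

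The 3 glypicans differed little or without a clear separation. GPC3, which binds growth factors of the Wnt and hedgehog families and restrains growth in mouse and human, had values of 8.33, 8.25 and 8.30 in MSC-treated lungs, against 8.16, 8.23 and 8.20 in control lungs. The groups were apart by 0.02, with all MSC-treated lungs higher, an order found for 423 of all genes (3.59%). A fold change of 0.10 was found, with a standard error of 0.14 and a 95% interval of -0.23 to 0.43. GPC3 varied by 0.17 over the 6 arrays, and 1.04% of all genes had a smaller range. It was the steadiest of the 7 genes.

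GPC4, a close relative of GPC6 in the glypican family, was at 7.54, 6.91 and 7.56 in MSC-treated lungs, against 7.06, 7.34 and 6.73 in control lungs. The groups overlapped, since MSC-treated replicate 2 was below control replicates 1 and 2. Its fold change was 0.29 (95% interval -0.27 to 0.86). The 3 marked arrays were all lower than the 3 unmarked ones in GPC4, by 0.58 on average. The difference between treatments was 0.02 within the marked and 0.21 within the unmarked arrays, and 0.11 (standard error 0.17) with the mark as a covariate. Its probe set is annotated to a transcript with a retained intron on the minus strand of chromosome X (Sscrofa10.2, 125343355 to 125344701), and the signal need not stand for the whole gene.

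GPC1, a glypican that binds growth factors such as FGF2, was at 6.65, 6.36 and 7.0 in MSC-treated lungs, against 6.58, 6.96 and 6.74 in control lungs. MSC-treated lungs held both the lowest and the highest value. The fold change was -0.09 with a 95% interval of -0.57 to 0.40, and it was above 0 when MSC-treated replicate 2 (0.07) or control replicate 2 (0.01) was left out. It was -0.30 within the marked and -0.14 within the unmarked arrays, and -0.22 with the mark as a covariate.

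The 3 syndecans did not share a direction. SDC4, a syndecan of focal adhesions found on many cells, was at 8.15, 8.50 and 8.87 in MSC-treated lungs, against 9.04, 8.73 and 8.88 in control lungs. MSC-treated replicate 3 reached the level of the control lungs and the other 2 were below them. The fold change was -0.38 with a standard error of 0.21 and a 95% interval of -0.88 to 0.12. It was -0.46 within the marked and -0.22 within the unmarked arrays, and past the thresholds at -0.56 without MSC-treated replicate 3. The probe set is annotated to the minus strand of chromosome 17 (Sscrofa10.2, 53254492 to 53270748).

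SDC2, a syndecan of fibroblasts and endothelium, was at 8.90, 9.74 and 8.70 in MSC-treated lungs, against 9.52, 9.32 and 9.79 in control lungs. MSC-treated replicates 1 and 3 were below all controls and replicate 2 was among them. On average SDC2 had a fold change of -0.43 with a standard error of 0.29 and a 95% interval of -1.10 to 0.23. The marked arrays were all higher in SDC2 than the unmarked ones, by 0.71 on average, so that MSC-treated replicate 2 shared its level with the marked control lungs. The treatment difference was 0.08 within the marked and -0.52 within the unmarked arrays, and -0.75, past the thresholds, without MSC-treated replicate 2. With the mark as a covariate the fold change of SDC2 was -0.22 with a standard error of 0.20. The mark is carried by 1 MSC-treated and 2 control arrays, and its part in the difference over 6 arrays was not tested beyond this fit.

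SDC1, the main syndecan of epithelia, was at 6.84, 6.81 and 7.12 in MSC-treated lungs, against 6.54, 6.80 and 6.82 in control lungs. Replicates of both groups met near 6.8, and MSC-treated replicate 3 was the highest and control replicate 1 the lowest. The fold change was 0.20 with a 95% interval of -0.19 to 0.59, and it was 0.12 within the marked and 0.18 within the unmarked arrays.

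The range of HPSE includes the difference between the groups that was known when it was listed. Over the 6 arrays HPSE had the widest range of the 7 genes, 1.18, and 86.0% of all genes had a smaller one. SDC2 followed with 1.09, SDC4 with 0.89, GPC4 with 0.83, GPC1 with 0.64 and SDC1 with 0.57, against a median of 0.67 over all genes. The SD within groups was 0.21 for HPSE, close to the median of 0.25 over all genes, whereas it was 0.42 for SDC2. SDC2 is the gene of the 7 that varied most among animals of the same group.

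The median fold change of the 7 genes was -0.09, with 4 negative and 3 positive values, beside a median of 0 over all genes. With the mark as a covariate it was -0.22. Of 95 further genes that make, modify, release or bind heparan sulfate, or that build the related chondroitin and dermatan sulfate, 59 were measured. Of these 0 rose and 1, the heparin-binding growth factor pleiotrophin (PTN), fell past the thresholds, a share near the 1.86% of all genes past them (1.21% lower, 0.654% higher). The median was -0.07 with 39 negative and 20 positive values, where 50.5% of all genes had a negative fold change. The groups did not overlap in 6 of the 59, 5 of them lower in MSC-treated lungs, where 7.42% of all genes were apart and 3.83% lower. The marked and the unmarked arrays did not overlap in 15 of the 59, with 14 higher on the marked arrays, where 23% of all genes were apart, 12.2% higher and 10.8% lower on the marked arrays.

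**Figure D3:**
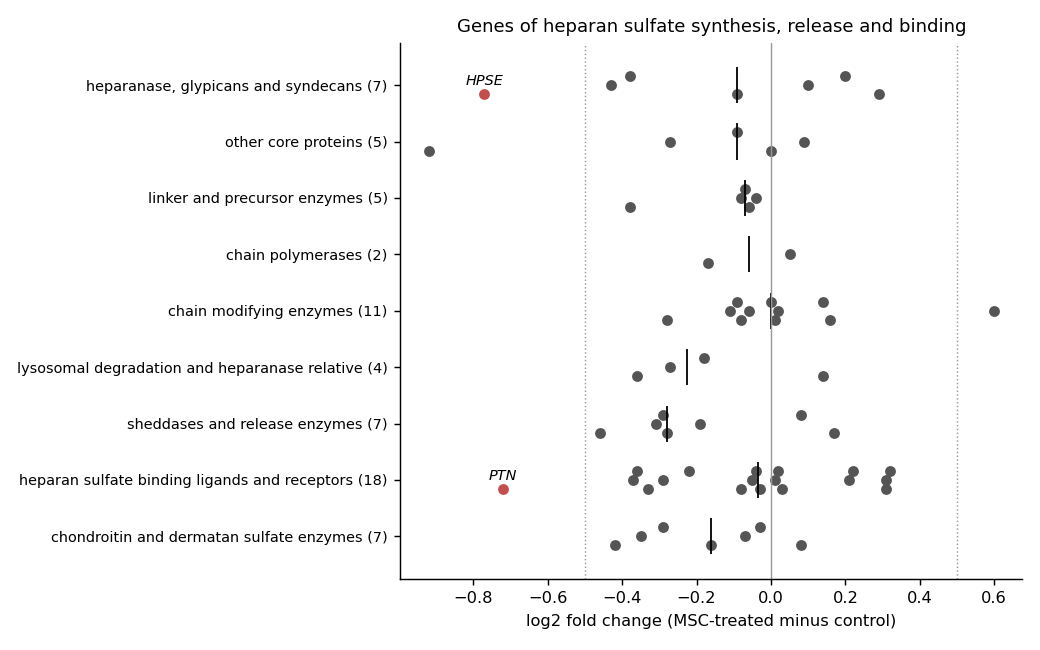
Log2 fold change (horizontal axis, MSC-treated minus control) of the 7 genes and of 59 further genes in 8 lists, with the number measured in brackets. Each point is a gene, black bars are list medians, dotted lines mark 0.5 in either direction, and red points are genes past both thresholds. HPSE at -0.77 and PTN at -0.72 are the only red points, whereas SRGN at -0.92 and NDST3 at 0.60 missed the p threshold.

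In the steps that make the chain, 0 of the measured genes were past the thresholds, where 1.86% of all genes were. In lists this short a count of 0 is near that share. The 5 linker and precursor genes measured, of 12, all had negative values between -0.38 and -0.04 (median -0.07), with PAPSS2, which makes the sulfate donor, at -0.04 and SLC35B3, which carries it into the Golgi, at -0.07. Of the polymerases, EXT2, the partner of EXT1 in chain elongation, had 7.58, 7.47 and 7.62 in MSC-treated lungs, against 7.70, 7.87 and 7.63 in control lungs. The groups were apart by 0.01 and the fold change was -0.17 with a 95% interval of -0.53 to 0.18. EXTL2, a glycosyltransferase that can stop elongation, was at 0.05. Enzymes that modify the chain, with 11 of 16 measured, had a median of 0 and a range of -0.28 to 0.60. In this list GLCE, the epimerase of glucuronic acid, had a fold change of -0.11 and HS2ST1, the 2-O-sulfotransferase, one of 0.14. NDST3, an N-deacetylase and N-sulfotransferase chosen after its value at the upper end was seen, had a 95% interval of -0.01 to 1.20.

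Enzymes that take the chain apart or release it from the cell were likewise short of the thresholds, again near the 1.86% of all genes past them. The 4 lysosomal genes measured, of 9, had a median of -0.22. GUSB, the lysosomal glucuronidase, had 7.83, 7.91 and 7.97 in MSC-treated lungs, against 8.06, 8.04 and 8.16 in control lungs. Its groups were apart by 0.07, and its fold change was -0.18 with a 95% interval of -0.52 to 0.15. IDS, which removes sulfate from iduronic acid, was at -0.27. Of the sheddases and release enzymes, with 7 of 9 measured and a median of -0.28, the membrane metalloproteinase MMP14 was at -0.19 and the sheddase ADAM10 at -0.29. A second probe set of ADAM10 gave 0.05, and the MMP14 probes also match other targets.

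Among the other core proteins, with 5 of 9 measured, serglycin (SRGN), the granule proteoglycan of blood and mast cells, had the lowest fold change of all 66 genes. Its values were 9.99, 11.38 and 9.62 in MSC-treated lungs, against 11.77, 11.04 and 10.93 in control lungs. MSC-treated replicate 2 was higher than 2 of the controls, and replicates 1 and 3 were below all of them. The fold change was -0.92 with a 95% interval of -1.97 to 0.13 and was 0.03 within the marked and -1.24 within the unmarked arrays. SRGN can carry chains other than heparan sulfate. TGFBR3 (betaglycan), the co-receptor of TGF-beta that can carry heparan sulfate, had a fold change of -0.09.

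Of the ligands and receptors that bind heparan sulfate, 18 of 22 were measured, and their median was -0.03. PTN had 5.82, 5.99 and 6.23 in MSC-treated lungs, against 6.29, 7.32 and 6.59 in control lungs. Its groups were apart by 0.05, with control replicate 2 well above the other arrays. The fold change was -0.72 with a 95% interval of -1.35 to -0.08 (exact two-sided permutation p = 0.1, the smallest that 3 against 3 can give, adjusted p = 1 in limma). Without control replicate 2 it was -0.43 and short of the thresholds. The probes of this probe set also match other targets, and the other probe set of PTN gave -0.34 with a standard error of 0.17, which was not past them. The chain-binding matrix protein THBS1 had a fold change of 0.03 with a standard error of 0.48, and MET, the receptor of hepatocyte growth factor, one of -0.33. The related enzymes of chondroitin sulfate, with 7 of 14 measured, had a median of -0.16, with CHSY1 at -0.35 and CSGALNACT2 at -0.07.

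HPSE is also expressed by blood cells, neutrophils and platelets among them. Single markers of several cell types were lower past the thresholds, as were HPSE and 1.21% of all genes. All 5 neutrophil markers measured, of 7, had negative fold changes, and S100A12, a calcium-binding protein of neutrophil granulocytes, fell by 0.99, with values of 10.84, 10.22 and 10.54 in MSC-treated lungs, against 12.33, 11.19 and 11.03 in control lungs. Summed over these markers on the linear scale, the signal was 1500 to 2550 in MSC-treated and 2470 to 7460 in control lungs, the highest being control replicate 1. Their mean log2 signal, in which each marker counts alike, overlapped, at 6.77 to 7.34 in MSC-treated and 7.12 to 8.95 in control lungs. Of 6 platelet markers 2 were measured: the platelet chemokine PPBP fell by 0.72 and ITGA2B had a fold change of 0.03. The groups were apart by 0.02 in PPBP, which was not past the thresholds with the mark as a covariate (-0.55). The PPBP probes also match other targets, and of its 2 probe sets only that of highest mean signal is given. The platelet sum was 78.8 to 118 in MSC-treated and 109 to 151 in control lungs.

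Single markers of other lists were past the thresholds as well, beside 1.86% of all genes in either direction. In the alveolar type 1 (5 of 5 measured), hepatocyte (4 of 5) and proliferation (2 of 3) lists, 0 markers were past them. In the erythroid list, with 3 of 5 measured, haemoglobin beta (HBB) fell by 1.26, although its groups overlapped and it was not past the thresholds with the mark as a covariate (-0.96). Of the 2 probe sets of HBB only that of highest mean signal is given, and it is annotated to chromosome 3. The erythroid sum was 172 to 325 in MSC-treated and 335 to 981 in control lungs. In the airway list, with 3 of 5 measured, keratin 5 (KRT5) fell by 0.94 and the mucin MUC4 by 1.11. FOXJ1 had a fold change of -0.39 with overlapping groups and was not past the thresholds. MUC4 was at 3.35, 4.49 and 3.71 in MSC-treated lungs, near the background means of 3.875 to 4.238. The airway sum was 140 to 246 in MSC-treated and 250 to 339 in control lungs. Of the 5 fibroblast markers PDGFRA fell by 0.67, while the sum was 7980 to 10700 in MSC-treated and 8240 to 10100 in control lungs. The sums of 4 endothelial markers of 5 (2980 to 4430 in MSC-treated, 2690 to 4400 in control lungs) and of 4 macrophage markers of 5 (3250 to 5450 in MSC-treated, 2370 to 5700 in control lungs) overlapped, and 0 markers of either list were past the thresholds, except that the macrophage receptor MARCO was past them with the mark as a covariate (0.67). RMA signals have no true zero, so that no marker could be called absent. The part of these cell types in the difference of HPSE was not tested.

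**Figure D4:**
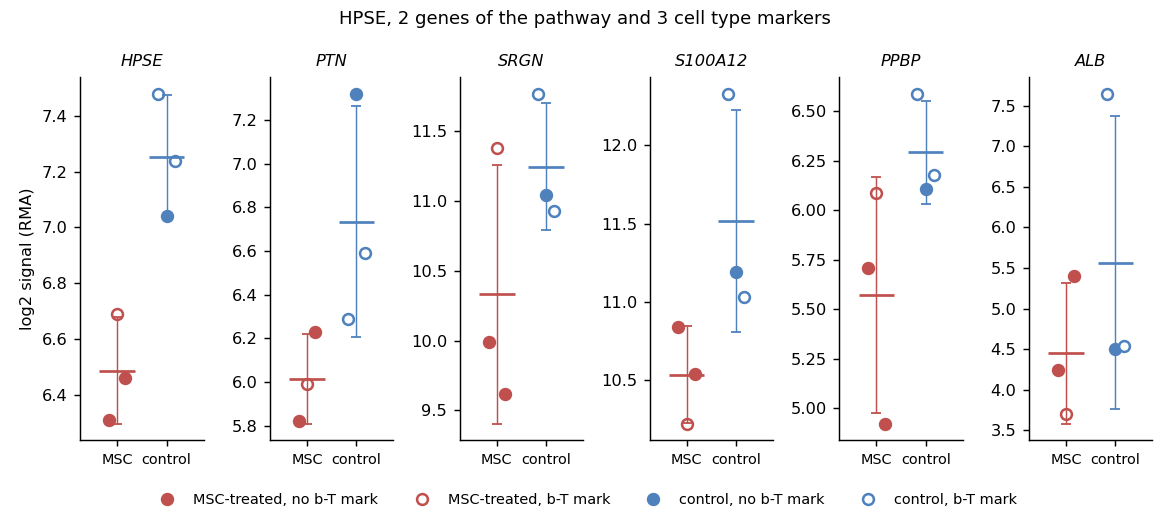
Log2 signal (vertical axes, each with its own range that does not start at 0) of HPSE, of PTN and SRGN, and of the markers S100A12 (neutrophils), PPBP (platelets) and ALB (hepatocytes), in MSC-treated (red, left) and control lungs (blue, right), with mean and SD of 3 animals and open circles for arrays with the b-T mark. HPSE, PTN, S100A12 and PPBP are lower in all MSC-treated than in all control lungs, and control replicate 1 is highest in S100A12 at 12.33 and in ALB at 7.65.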

How the data were processed

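Lung RNA of 3 MSC-treated and 3 control pigs had been hybridized to 1 Affymetrix Porcine Gene 1.0 ST array each. For these arrays the authors deposited log2 signals, obtained by RMA (background correction, quantile normalization, probe summarization) in Affymetrix Expression Console 1.4, according to the submitters' processing notes. Quantile normalization hides a change shared by most genes. The ComBat correction and Brainarray annotation of Methods are not part of these values. The number of arrays limits the precision.

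The array has 27558 probe sets, 19124 of the main category. A single gene was found for 12959 of these through symbols and descriptions in the files and through RefSeq gene IDs (211 had several genes, 5954 none). For each of 11781 genes the probe set of highest mean signal was used. The 7 genes described first have 1 probe set each, so this choice decided nothing for them. GPC1 was named through its gene ID and SDC2 through its description.

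Groups were compared with limma 3.58.1 (lmFit, eBayes) in R 4.3.3 over all genes without a covariate, with Benjamini-Hochberg adjustment. Genes were counted at an unadjusted p under 0.05 and a log2 fold change of 0.5 or more in either direction (the thresholds of the study). The code was tested on simulated data. Members and lists were chosen with earlier results of these data known. Of the wider lists, the genes past the thresholds and the 2 with the highest mean signal in each list are named (a rule for choosing names only, since signals of different probe sets are not comparable), and others are said to be so. The b-T mark was read from the array names of a second deposited table, whose columns equal those of the samples in all 27558 probe sets (tolerance 1e-06). Alternatives were the mark as covariate, a filter at a mean log2 of 5, averaged probe sets, median centring, a further quantile normalization, trended and robust variance, array weights, the methods' t-test, the replicate number as block, and the omission of single arrays. The same values, read a second time, were fitted as well. Python 3.11.15 and matplotlib 3.10.9 drew the figures. Fold changes deposited by the authors were not used.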

Additional observations from a re-analysis of the deposited data

How the results depend on the processing

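HPSE kept its direction and stayed past the thresholds in all alternatives with a limma fit. At -0.77 it missed only the stricter criterion of Methods, a t-test with a fold change above 2.0 (below, the t-test). It missed this criterion by its fold change, while its p in that test was under 0.05. Without single arrays its fold change lay between -0.88 and -0.66, where the direction was fixed by groups without overlap. Of the 7 genes 1 was past the thresholds, 1 to 2 when single arrays were left out (SDC2 without MSC-treated replicate 2, SDC4 without MSC-treated replicate 3), and 0 under the t-test. Of the 59 further genes 1 was past them, 1 to 3 without single arrays and 0 under the t-test. Over all genes the count was 219, and it was 342 with the mark as covariate, 183 to 610 without single arrays (470 without control replicate 2, 610 without MSC-treated replicate 2) and 2 under the t-test, 0 of them after Benjamini-Hochberg adjustment, where limma had 0 and 322 at an unadjusted p under 0.05. Of the genes past the thresholds 64.8% were lower in MSC-treated lungs. This share was 42.1% with the mark as covariate, 48.6% without MSC-treated replicate 3, 56.2% after median centring and 72.4% with a mean log2 of at least 5.

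Replicate numbers are shared by the groups, and the labels do not say that they pair animals. The correlations of deviations of same-numbered arrays were -0.41, -0.49 and 0.06, and those of differently numbered arrays -0.44 to 0.61. These values cannot decide on pairing, since for each replicate number the MSC-treated and the control array differ in the mark. With the replicate number as a block HPSE was at -0.77, and 1 of the 7, 1 of the 59 and 166 of all genes were past the thresholds.

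The sign of several small fold changes turned, and the cause was not tested. With the mark as covariate TGFBR3 was at 0.07, THBS1 at -0.31 and CSGALNACT2 at 0.03. With array weights PAPSS2 was at 0.13, SLC35B3 at 0.10, GLCE at 0.05 and MMP14 at 0.01, and PTN missed the thresholds at -0.54 while NDST3 was past them. Without single arrays the fold changes spanned -0.25 to 0.07 for GPC1, -0.28 to 0.10 for TGFBR3, -0.29 to 0.27 for PAPSS2, -0.24 to 0.20 for SLC35B3, -0.11 to 0.16 for EXTL2, -0.34 to 0.15 for GLCE, -0.35 to 0.07 for MMP14, -0.46 to 0.49 for THBS1 and -0.21 to 0.05 for CSGALNACT2. PTN also missed the thresholds without MSC-treated replicate 1 (-0.62) and without MSC-treated replicate 2 (-0.70), and SRGN was past them at -1.44 without MSC-treated replicate 2. The second probe set of ADAM10, chosen after seeing the data, gave 0.05. With 3 arrays per group the 95% intervals of GPC1, GPC4, SDC1, SDC2 and SDC4 hold 0 and also reach beyond 0.5 in one direction.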
